A study of Mus musculus with 3 samples.

Results

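Wfdc18-rich epithelial cells were taken from a single-cell RNA matrix of mouse esophageal organoid-derived cells by a rule that used their own values: they were chosen by their UMIs of Wfdc18 and of 3 groups of other genes. Barcodes needed at least 500 genes, at least 1000 UMIs (unique molecules counted) and at most 20% mitochondrial UMIs. They could hold at most 1 UMI over 5 mesenchymal genes (Vim, Col5a1, Grem1, Aebp1, Ccn5). They could hold at most 3 UMIs over 5 secretory genes (Ltf, Lcn2, Gabrp, Il33, Aldh1a3), and at most 1 over 8 mitosis genes (Nusap1, Ube2c, Ccna2, Birc5, Cdc20, Top2a, Cdk1, Cenpf). Of 18116 barcodes, 14925 passed the quality limits and 9625 passed every limit. The 20% of these with the highest share of UMIs from Wfdc18 were the 1925 rich cells, which made up 12.9% of the quality-passed cells. The comparison was with the bottom 20%, but 28.1% of the 9625 cells had no Wfdc18 UMI. Because they were tied, all 2706 of them formed the Wfdc18-poor set.

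The series holds 1 culture, named PC, sequenced as a gene expression, a barcode and a scar library with 1 sample each. Organoids came from Trp53 floxed/floxed mouse esophagus, lost Trp53 through Ad-Cre-EGFP and lost Cdkn2a through CRISPR/Cas9. The dissociated cells were grown in DMEM with serum, first with and later without the kinase inhibitor Y-27632, expressed Cas9 constitutively and were lipofected with a barcode library. After 3 passages live RFP-positive cells were sorted, and a 10x Genomics 3′ kit, labelled v2, gave the gene expression library. Rich and poor cells come from this 1 culture and had the same treatment, and were set apart by their Wfdc18 UMIs. Edits, barcodes and scars could differ from cell to cell and were not analysed here. The labels call the source esophageal cancer, and they state neither the number of mice nor whether PC is clonal. The PCN line named in the design, with a Notch1 knockout, was not analysed here.

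The matrix summed to 47720034 UMIs. All of it is 1 sample, so no test between rich and poor cells was possible and no p-value is given. Levels are CPM, the UMIs of a gene in the summed cells of a set scaled to a total of 1000000. Intervals are exact 95% Poisson limits for a level, exact conditional binomial limits for a ratio and exact Clopper-Pearson limits for a share. They cover counting error only, not the spread between cultures. A gene was called higher or lower when the 2 levels differed at least 2-fold and the higher was at least 10 CPM, with counts under 3 UMIs set to 3. Median depth was 2833 UMIs and 1408 genes in rich cells against 2251 UMIs and 1260 genes in poor cells. Shares of cells with a UMI were therefore taken after thinning each cell to 1500 UMIs, except where full depth is named. Thinning left out 146 rich and 680 poor cells.

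Wfdc18 encodes a small secreted protein of the whey acidic protein (WAP) four-disulfide-core family, whose members include inhibitors of serine proteases and antimicrobial proteins of epithelia. Stratified esophageal epithelium keeps its dividing cells in a basal layer marked by keratins 5 and 14 and the transcription factor p63 (Trp63). Cells that leave this layer turn on suprabasal keratins and cornified envelope proteins such as the Sprr family. The 3 genes Ucp2, Ccl9 and Crip1 were named with Wfdc18 as marks of these cells. Ucp2 encodes a carrier of the inner mitochondrial membrane, Ccl9 a CC chemokine and Crip1 a small LIM-domain protein. They were named with results of these data known, so their differences between rich and poor cells are descriptions and support nothing.

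Wfdc18 (ENSMUSG00000000983) lies on the plus strand of chromosome 11, from 83709015 to 83711348 of GRCm38, in 3 exons. Ccl9 (ENSMUSG00000019122) lies 130 kb away on the minus strand of the same chromosome, from 83572919 to 83578636. Ucp2 (ENSMUSG00000033685) lies on chromosome 7, from 100493337 to 100502020, and Crip1 (ENSMUSG00000006360) on chromosome 12, from 113146316 to 113153879, both on the plus strand. These positions are from GENCODE M21, and the RefSeq starts used for the windows below can differ from them. The Crip1 window lies inside the gene as placed here, and the Ucp2 window runs past the gene start. The 250 bases before the RefSeq start of each (GRCm38.p6) are printed because the summed levels of these 4 genes were higher in rich than in poor cells. Capitals mark matches on either strand to the core promoter element TATAAA, to the AP-1 motif TGANTCA or to the GC box motif GGGCGG.
Wfdc18, chr11:83708754-83709003, plus strand: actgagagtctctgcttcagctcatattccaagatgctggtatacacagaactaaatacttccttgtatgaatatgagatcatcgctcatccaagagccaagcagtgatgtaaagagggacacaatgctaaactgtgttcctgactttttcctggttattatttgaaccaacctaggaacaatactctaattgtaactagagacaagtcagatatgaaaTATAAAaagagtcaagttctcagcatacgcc
Ccl9, chr11:83578637-83578886, minus strand: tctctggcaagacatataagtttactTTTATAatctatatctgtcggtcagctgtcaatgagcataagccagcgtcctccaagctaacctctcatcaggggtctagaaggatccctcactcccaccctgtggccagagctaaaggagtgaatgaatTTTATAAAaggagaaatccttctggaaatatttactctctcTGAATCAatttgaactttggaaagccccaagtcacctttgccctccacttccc
Ucp2, chr7:100493108-100493357, plus strand: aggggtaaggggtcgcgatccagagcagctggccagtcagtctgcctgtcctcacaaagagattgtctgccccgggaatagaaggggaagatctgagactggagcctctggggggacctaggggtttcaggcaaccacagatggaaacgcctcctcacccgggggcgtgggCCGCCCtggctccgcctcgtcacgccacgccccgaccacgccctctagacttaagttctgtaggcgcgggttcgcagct
Crip1, chr12:113151762-113152011, plus strand: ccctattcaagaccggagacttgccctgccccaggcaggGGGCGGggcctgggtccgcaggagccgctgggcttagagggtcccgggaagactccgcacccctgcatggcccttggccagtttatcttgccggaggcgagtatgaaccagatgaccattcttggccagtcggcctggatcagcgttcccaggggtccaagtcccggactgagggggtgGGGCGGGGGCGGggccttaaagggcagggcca

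The Wfdc18 window held 1 TATAAA, which began 31 bases before the start, and neither of the other motifs. The Ccl9 window held TATAAA 92 bases before the start and, on the other strand, at 94 and 224 bases, where the matches at 92 and 94 overlap. It also held the only TGANTCA, at 53 bases. The Ucp2 window held 1 GGGCGG on the other strand, 79 bases before the start, and the Crip1 window held 3, at 26, 32 and 211 bases. Of 32851 promoter windows of this length, 12.4% held TATAAA, 6.75% held TGANTCA and 32.7% held GGGCGG. GC content was 38.4% for Wfdc18, 43.6% for Ccl9, 63.6% for Ucp2 and 67.2% for Crip1, against a median of 52.4% over all windows. No motif searched was present in all 4 windows.

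Wfdc18 chose the cells, so its values are a description. In rich cells it reached 27802 CPM (27663 to 27942), or 2.78% of all their UMIs. Single rich cells held 16 to 371 Wfdc18 UMIs, with a median of 68. The share per cell ran from 1.452% to 9.86%, with a median of 2.42%. The rule's threshold fell within a continuous range. The lowest rich cell had 31 Wfdc18 UMIs among 2135, and the highest cell below the threshold had 59 among 4064, a share of 1.4518%.

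Kept cells below the threshold also held Wfdc18. The other kept cells with at least 1 Wfdc18 UMI were divided into bins by share, which fixes the order of Wfdc18 across them. Its level was 8818 CPM in the fourth bin (1925 cells), 2397 CPM in the third (1925 cells) and 456 CPM in the second (1144 cells). Poor cells were those with no Wfdc18 UMI, so their 0 among 6851964 UMIs was fixed by the choice and sets no upper limit. A class cut from such a share is a range of it, not a type. Shares between 1% and 2% were found in 1311 kept cells, between 2% and 4% in 1013 and above 4% in 272.

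**Figure D1:**
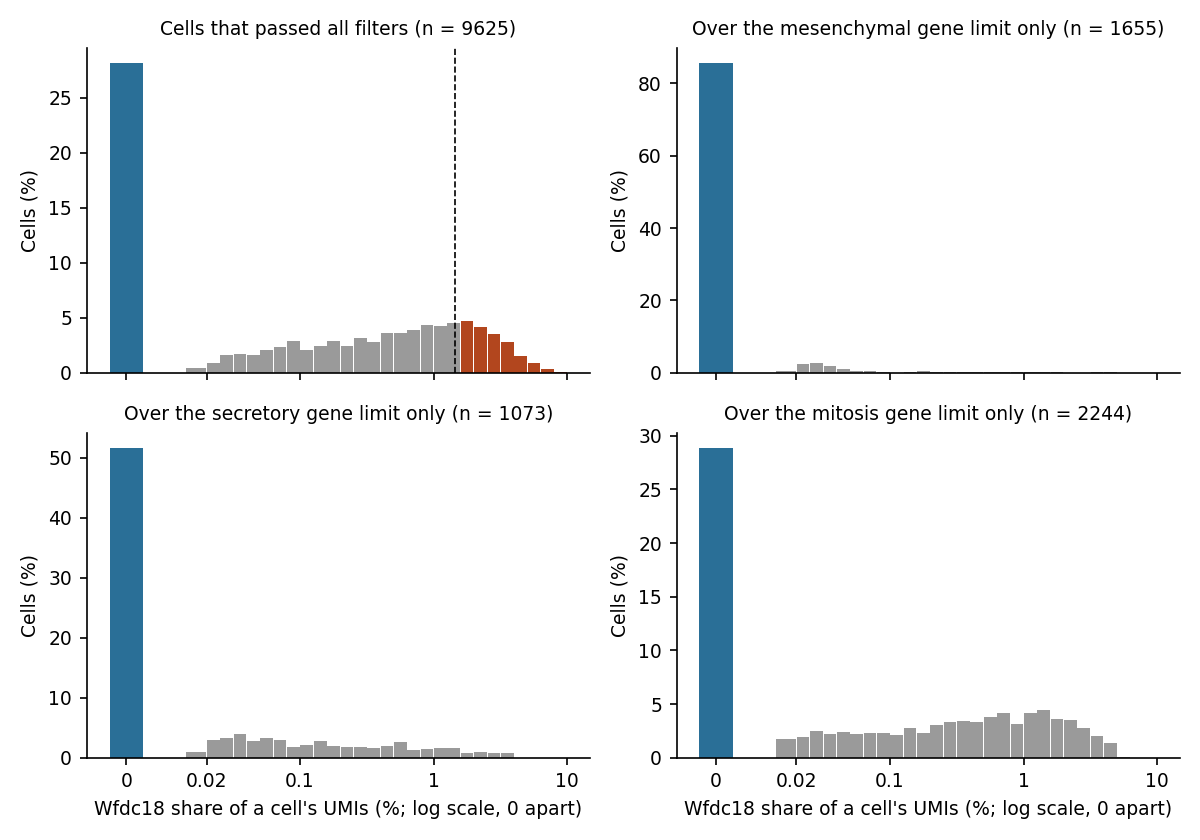
Distribution of the Wfdc18 share of a cell's UMIs (x axis, %, log scale with 0 set apart) in 4 sets of cells (y axis, % of the set, a scale of its own in each panel). The dashed line is the lowest rich cell at 1.452%, red bars lie wholly above it, the blue bar is cells with no Wfdc18 UMI and the first grey bar gathers all shares above 0 and below 0.02%. Kept cells spread without a gap across the line, while 85.5% of mesenchymal barcodes have no Wfdc18 UMI at full depth.

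Cells that failed a single limit differed in Wfdc18. Shares with no UMI are given at full depth here. Barcodes over the mesenchymal limit alone numbered 1655, and 85.5% of them (83.7% to 87.2%) had no Wfdc18 UMI, with a summed level of 448 CPM. Barcodes over the secretory limit alone numbered 1073, and 51.6% had none (1991 CPM). Among 2244 barcodes over the mitosis limit alone 28.8% had none (6036 CPM), close to the 28.1% of kept cells. Wfdc18 UMIs were thus common in barcodes with mitosis transcripts and rare in those with mesenchymal transcripts.

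The basal part of the name was checked against markers. Of 10 basal markers, 8 were at 10 CPM or more in rich cells. The other two were Krt15, at 2 UMIs, and Pdpn, below 3 UMIs. The summed level of the 10 was 5172 CPM in rich cells, 3741 CPM in poor cells and 688 CPM in mesenchymal barcodes. At least 3 basal marker UMIs were present in 94.5% of thinned rich cells, 75.3% of poor cells and 9.21% of mesenchymal barcodes. Basal markers therefore marked both rich and poor cells. All 7 simple epithelial markers were also at 10 CPM or more in rich cells, and summed to 1991.5 CPM there and 2407.3 CPM in poor cells. The 12 differentiated squamous markers summed to 803 CPM in rich and 518 CPM in poor cells, with Krt1 and Krt4 at 0 in rich cells. A UMI of these 12 was found in 56.9% of thinned rich and 43.8% of poor cells. Differentiated squamous markers, like basal markers, were thus higher in rich cells as a sum. Krt6a and Sprr1a made up most of that sum, and the other markers together were not higher in rich cells. Of the 12, 8 were under 10 CPM in rich cells. The sum was higher still, at 1218.5 CPM, in barcodes over the secretory limit alone.

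Markers of other cell types were low. The 8 mesenchymal markers, of which the rule limited 3, summed to 18.6 CPM in rich and 41.6 CPM in poor cells, with Dcn at 0 in rich cells. The 8 immune markers summed to 5.64 and 10.2 CPM, and Ptprc, C1qa, Tyrobp, Cd3e, Adgre1 and Cd74 had no UMI in rich cells. The 6 endothelial markers summed to 2.37 and 2.77 CPM, with Emcn, Kdr and Cdh5 at 0 in rich cells.

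Ccl9 was at 426 CPM in rich and 109 CPM in poor cells, a 3.9-fold difference (3.59 to 4.24). Ucp2 was at 620 and 251 CPM (2.47-fold, 2.33 to 2.62), and Crip1 at 248 and 96.2 CPM (2.57-fold, 2.34 to 2.83). From poor cells through the bins to rich cells Ucp2 read 251, 372, 426, 515 and 620 CPM. Ccl9 read 109, 187, 239, 321 and 426 CPM, and Crip1 read 96.2, 130, 143, 185 and 248 CPM. Each of the 3 was higher at every step of Wfdc18 share. Against the second bin in place of the cells at 0, a comparison added after the data were seen, Ccl9 was 2.28-fold higher, Ucp2 1.67-fold and Crip1 1.90-fold, so Ucp2 and Crip1 were then below 2-fold.

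At equal depth, 55.4% of rich cells (53.1% to 57.8%) had a Ucp2 UMI, against 28.1% of poor cells and 13.2% of mesenchymal barcodes. Ccl9 was counted in 39.8% of rich cells, 12.5% of poor cells and 1.77% of mesenchymal barcodes. Crip1 was counted in 25.1%, 12.6% and 10.3%, so its share in poor cells was near that in mesenchymal barcodes. All 3 were counted together in 136 of 1779 rich cells (7.64%) and in 12 of 2026 poor cells (0.592%). None of the 3 was counted in 21.2% of rich and 55.6% of poor cells. The share with none was 27.6% in the fourth bin, 36.2% in the third and 41.9% in the second. It was 44.8% in barcodes over the mitosis limit alone and 50.7% in those over the secretory limit alone. A Ucp2 UMI was found in 49.0% of fourth-bin cells. Most rich cells thus carried at least 1 of the 3 and few carried all of them at this depth. Most cells of the other bins and most mitosis barcodes carried at least 1 too.

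Among 8577 genes tested, Wfdc18 left out, 29 were called higher in rich cells (0.338%) and 209 lower (2.44%). Counts of called genes in the lists below are to be read beside these shares. The median log2 ratio of all tested genes was -0.13, and 90% of genes lay between -0.75 and 0.38. Of the 29 higher genes 24 were higher at every step across the 5 bins, as were 301 of all tested genes. Of the 209 lower genes 106 were lower at every step, as were 646 of all tested genes. Neighbouring bins hold cells of the same sample, so these steps are no replicates. Against the second bin in place of cells at 0, 17 genes were called higher and 83 lower, and 9 and 69 of these were among the 29 and 209.

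**Figure D2:**
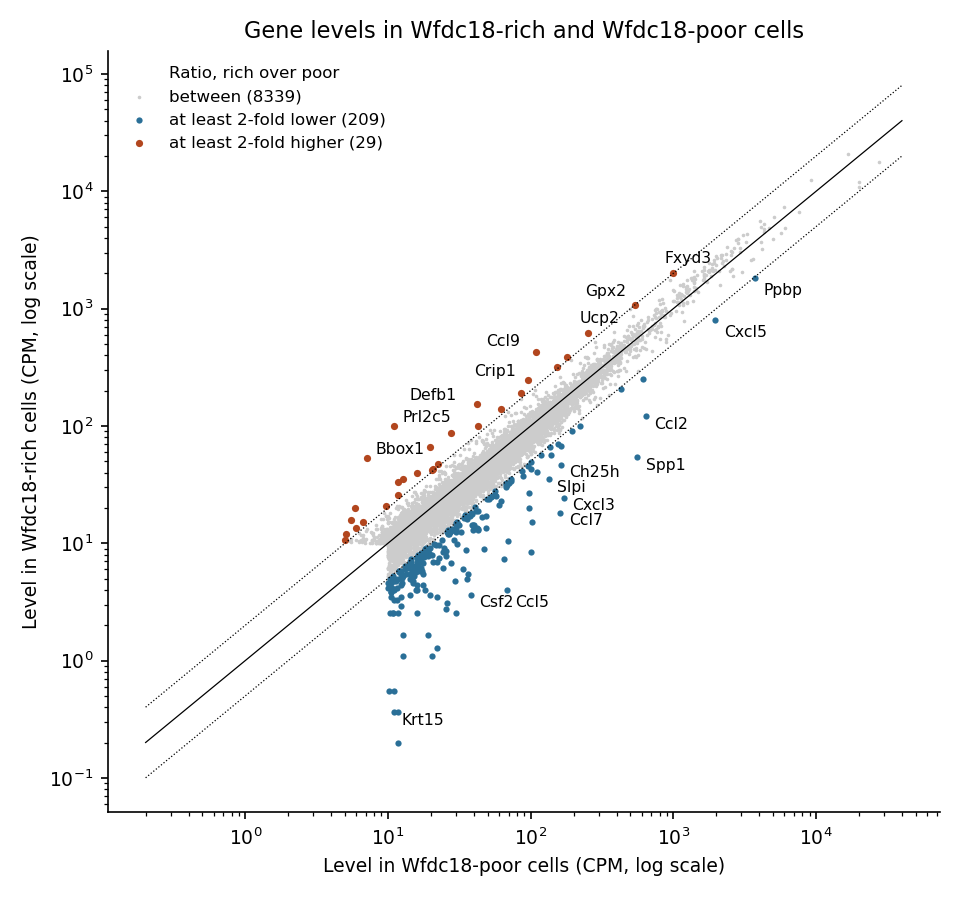
Level of each tested gene in Wfdc18-poor cells (x axis, CPM, log scale) and Wfdc18-rich cells (y axis, CPM, log scale), Wfdc18 left out. The solid line marks equal levels, dotted lines mark 2-fold differences, and a gene below 0.2 CPM is drawn at 0.2. The 29 higher genes stay within 8.97-fold of the line, while chemokines such as Ccl5 and Ccl2 and the matrix protein gene Spp1 are among the 209 lower genes farthest from it.

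The largest ratio among the higher genes was that of Prl2c5, a prolactin-family (proliferin) gene, at 99.5 CPM in rich and 11.1 CPM in poor cells (8.97-fold, 7.05 to 11.6). It came from few cells: 94.9% of thinned rich cells had no Prl2c5 UMI and the highest had 22. Prl2c5 has close paralogs that share reads, so its count is uncertain. Of these, Prl2c2 was at 160 and 137 CPM and Prl2c3 at 381 and 253 CPM, neither called. Bbox1, which encodes the last enzyme of carnitine synthesis, was at 53.1 and 7.15 CPM (7.43-fold, 5.47 to 10.3). It was counted in 7.31% of thinned rich cells, in 0.592% of poor cells and in no thinned mesenchymal barcode. Both were higher again in rich cells above their median Wfdc18 share than in those below: Prl2c5 at 130 and 68.0 CPM, Bbox1 at 65.2 and 40.8 CPM.

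The next 5 genes are described by what they encode, not as a group. Defb1, a beta-defensin, was at 154 and 41.7 CPM (3.70-fold, 3.23 to 4.25). Spink5, which encodes a serine protease inhibitor of stratified epithelia, was at 390 and 180 CPM (2.17-fold). Sprr1a, a cornified envelope precursor, was at 317 and 153 CPM (2.07-fold), and at 487 CPM in mesenchymal barcodes. S100a4, a calcium-binding protein, was at 191 and 86.0 CPM (2.22-fold), but was also at 275 CPM in mesenchymal barcodes. Cda, cytidine deaminase, was at 138 and 62.3 CPM (2.22-fold). Against the second bin Spink5 was 1.71-fold higher, Sprr1a 1.85-fold, S100a4 1.73-fold and Cda 1.74-fold, so their calls were lost, while Defb1 was 3.05-fold higher. Of the fixed lists, secretory defence genes had 1 of 7 higher (Defb1) and 1 lower (Gabrp), with a median log2 ratio of -0.45. The rule limited Lcn2, Gabrp and Il33 of this list, so its median and the Gabrp call draw on values the rule used. Protease inhibitors had 1 of 17 higher (Spink5) and 1 lower (Slpi).

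The other 5 higher genes at 50 CPM or more act in membrane transport and metabolism. Fxyd3, a regulator of the sodium pump, was at 2007 and 987 CPM (2.03-fold, 1.97 to 2.10), and Gpx2, an epithelial glutathione peroxidase, at 1082 and 541 CPM (2.0-fold, 1.92 to 2.08). Both lay at the 2-fold limit, and against the second bin they were 1.69-fold and 1.40-fold higher. Slc1a3, a glutamate transporter, was at 99.2 and 42.6 CPM (2.33-fold). Plb1, a phospholipase, was at 66.6 and 19.8 CPM (3.35-fold), and Cmah, which converts the sialic acid Neu5Ac to Neu5Gc, at 86.6 and 27.4 CPM (3.16-fold). Against the second bin Plb1 was 1.78-fold and Slc1a3 1.93-fold higher. Some of these levels were matched in other epithelial barcodes: those over the secretory limit alone had 2046 CPM of Fxyd3, 74.1 CPM of Plb1 and 364 CPM of Spink5, and those over the mitosis limit alone also had 364 CPM of Spink5. Bbox1 and Ccl9 were lower in both, at 13.1 and 12.6 CPM and at 35.8 and 220 CPM. The other higher genes were under 50 CPM. They included Hlf, a bZIP transcription factor, at 35.1 and 12.7 CPM, Ptn, the growth factor pleiotrophin, at 33.3 and 11.7 CPM, and Alox12, a lipoxygenase (2.49-fold). The counting interval of Tgif2, with 58 and 34 UMIs, ran from 1.37 to 3.35. Among the 29 higher genes 22 were lower in mesenchymal barcodes than in poor cells.

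**Figure D3:**
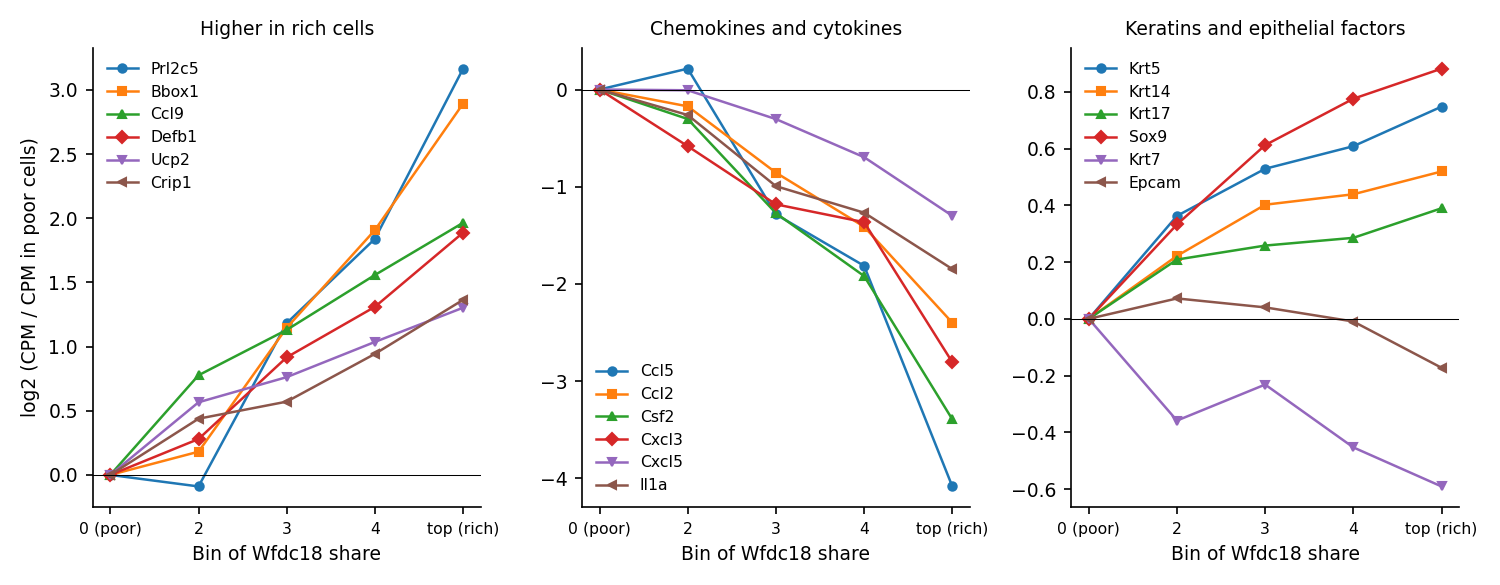
Level in each bin of Wfdc18 share relative to poor cells (y axis, log2 of the CPM ratio, with a scale of its own in each panel) for 18 genes, from cells with 0 Wfdc18 UMIs through bins 2 to 4 to rich cells (x axis). Lines join the summed level of each bin, which has no replicates. Marker genes are higher where Wfdc18 is higher, chemokines and cytokines are lower from the third bin on, and keratins 5, 14 and 17 differ by less than 2-fold.

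Basal keratins were moderately higher, below the limit for a call. Krt5 was at 871 and 519 CPM (1.68-fold, within 1.31 to 1.71 over every setting tried), Krt14 at 1430 and 998 CPM (1.43-fold) and Krt17 at 1757 and 1341 CPM (1.31-fold). Krt15, a keratin of basal progenitors, was the exception, with 2 UMIs in rich and 75 in poor cells (0.364 and 10.9 CPM). Of 17 tested genes of the basal list, none was called higher and Krt15 was called lower. Their median log2 ratio was 0.24, against -0.13 for all tested genes. Trp63 was at 188 and 158 CPM, Col17a1, a hemidesmosome collagen, at 491 and 329 CPM (1.5-fold), and Egfr at 107 and 163 CPM.

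The squamous differentiation list was similar, with 1 of 19 tested genes higher (Sprr1a) and 1 lower (Notch3), and a median of 0.23. Klf4, a transcription factor of differentiating squamous cells, was at 130 and 69.3 CPM (1.88-fold). Krt6a was at 415 and 279 CPM (1.49-fold), while Krt16 was at 15.3 and 26.8 CPM. Sox9, a transcription factor of progenitor states, was at 519 and 282 CPM (1.84-fold), and Sox2 at 66.4 and 76.0 CPM. Snai2 was at 123 and 72.7 CPM (1.70-fold). Of 11 tested simple epithelial genes none was called, with a median of -0.17. Krt7 was at 79.9 and 120 CPM, Cldn4 at 390 and 548 CPM and Epcam at 1110 and 1250 CPM. Of 23 laminin-332 and adhesion genes none was called, with a median of 0.07, and Itga2 had a ratio of 0.566.

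Most tested chemokines were lower in rich cells. Of 16 CXC chemokine genes listed, 9 were tested, 7 were called lower and none higher, with a median log2 ratio of -1.30. Over all tested genes 2.44% were called lower and 0.338% higher. Cxcl5, a neutrophil attractant, was at 799 CPM in rich and 1967 CPM in poor cells (2.46-fold lower, 2.38 to 2.55). Ppbp, the platelet basic protein of the same family, was at 1807 and 3754 CPM (2.08-fold lower), and Cxcl1 at 249 and 611 CPM (2.46-fold lower). Cxcl3 was at 24.4 and 170 CPM (6.99-fold lower) and Cxcl2 at 10.4 and 69.2 CPM (6.67-fold lower). Cxcl10, an interferon-induced chemokine, was at 4.73 and 29.3 CPM. Cxcl12, a chemokine made by fibroblasts, had 1 and 80 UMIs.

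Of 21 CC chemokine and Csf1 genes listed, 8 were tested, with Ccl9 higher and 5 lower and a median of -1.73. Ccl2, a monocyte attractant, was at 121 and 639 CPM (5.28-fold lower, 4.86 to 5.73). Ccl5, a T-cell attractant, was at 4.0 and 67.9 CPM (17.0-fold lower, 11.1 to 27.3), and Ccl7 at 18.2 and 161 CPM (8.87-fold lower). Ccl20 was at 3.09 and 25.8 CPM, and Csf1, the macrophage growth factor, at 41.7 and 87.1 CPM. Ccl9 was thus the only tested chemokine called higher in cells in which 12 other genes of these lists were called lower. Ccl25 was at 33.3 and 35 CPM and Cxcl16 at 170 and 207 CPM, neither called.

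Levels stepped down across the bins. From poor to rich cells Ccl2 read 639, 567, 353, 240 and 121 CPM, and Cxcl3 read 170, 114, 75.2, 66.2 and 24.4 CPM. Ccl5 read 67.9, 78.8, 27.9, 19.3 and 4.0 CPM, and Ppbp read 3754, 4438, 3456, 2669 and 1807 CPM, so both were highest in the second bin. At equal depth a Ccl2 UMI was found in 8.32% of rich and 26.8% of poor cells. For Cxcl5 the shares were 44.7% and 59.1%, and for Ppbp 64.7% and 68.3%, much closer than the levels.

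The IL-1, TNF and NF-kB list also had lower levels. None of its 18 tested genes was above a ratio of 1, 5 were called lower, and the median was -0.61. Il1a was at 26.9 and 96.9 CPM (3.60-fold lower), Csf2, the growth factor GM-CSF, at 3.64 and 38.2 CPM (10.5-fold lower), and Csf3 at 6.91 and 20.6 CPM. Nfkbia, the NF-kB inhibitor and target, was at 790 and 1184 CPM, not called. In the interferon list 3 of 12 tested genes were lower (Irf1, Ifit1 and Ifit3), with a median of -0.59. Its exception was Ifitm3, at 3320 and 2362 CPM. In the MHC class I list 2 of 10 were lower, both immunoproteasome genes (Psmb8 at 2.55 and 15.9 CPM, and Psmb9), with a median of -0.58. For these lists the share called lower over all tested genes was 2.44%. B2m, the light chain, was at 593 and 921 CPM.

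**Figure D4:**
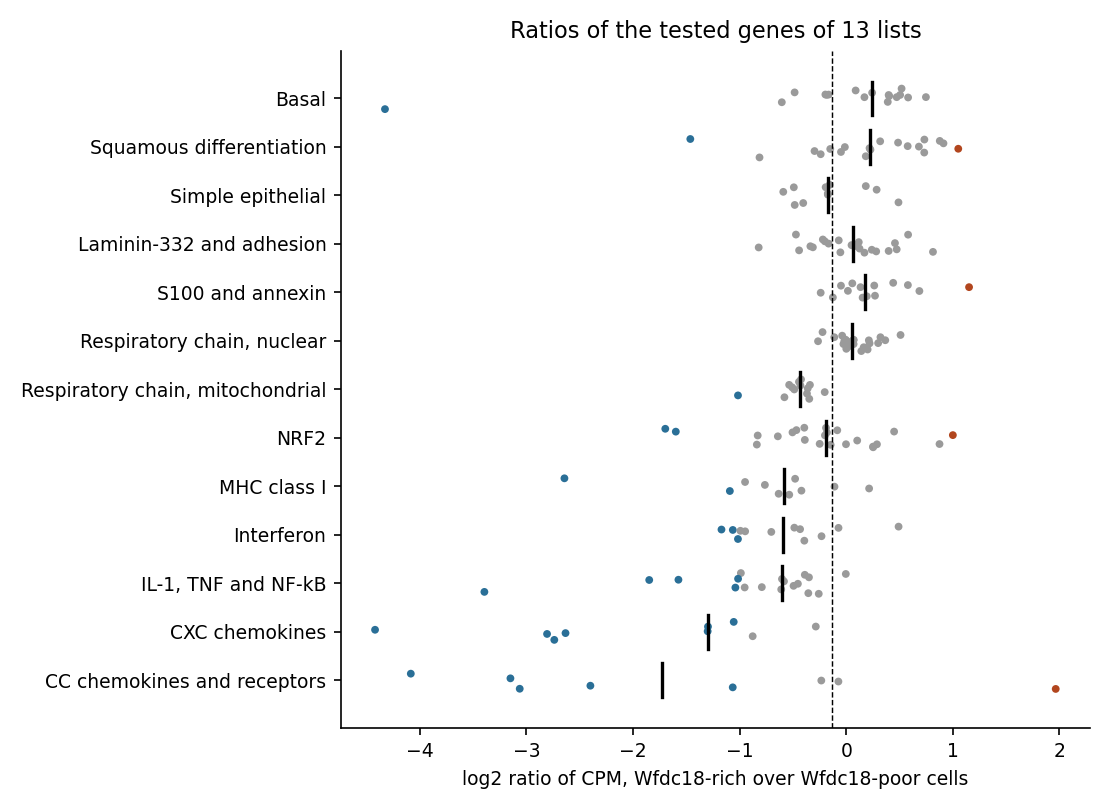
log2 ratio of CPM, rich over poor cells (x axis), for each tested gene of 13 lists (rows). Each dot is a gene, red at least 2-fold higher and blue at least 2-fold lower, short bars are list medians and the dashed line is the median of all tested genes, -0.13. The chemokine and cytokine lists lie to the left with Ccl9 alone at the right, and the basal list has a median of 0.24.

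Other lower genes at 50 CPM or more, again no fixed group, included the following. Spp1 (osteopontin) was at 54.0 CPM in rich and 560 CPM in poor cells (10.4-fold lower). Slpi, a WAP-family protease inhibitor like Wfdc18, was at 35.1 and 133 CPM (3.8-fold lower). Ch25h, cholesterol 25-hydroxylase, was at 46.8 and 163 CPM (3.49-fold lower), and Nts, neurotensin, at 19.8 and 97.2 CPM (4.90-fold lower). Gabrp was also lower, but the rule limited it. Slc7a11, the cystine transporter subunit, and Aldh3a1 were the 2 lower genes of the NRF2 list, at 13.1 and 42.5 CPM and at 12.9 and 39.1 CPM. Gpx2 was its 1 higher gene among 23 tested.

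Several lower genes are also genes of the mesenchymal barcodes. Of the 209 lower genes, 117 (56.0%) had a higher level in mesenchymal barcodes than in poor cells, against 40.4% of all tested genes. In mesenchymal barcodes Spp1 was at 4760 CPM, Ccl2 at 1464, Ccl7 at 1193 and Slpi at 251 CPM. Cxcl3 was at 29.3 CPM there, Ccl5 at 22.6, Cxcl5 at 548 and Ppbp at 617 CPM, all below their levels in poor cells. A further 36 genes, among them Spp1, Ccl7, Cxcl12, Col1a1, Piezo2 and Acta2, were at least 20-fold higher in mesenchymal barcodes than in rich cells, at 100 CPM or more. At full depth, more than 10 UMIs of these were found in 11% of poor cells, 1.25% of rich cells and 99.3% of mesenchymal barcodes. These 36 genes were picked as low in rich cells and high in mesenchymal barcodes, so that choice favours low and high shares there. The gap between poor and rich cells draws on it too. Malat1, a nuclear RNA, made up more than 5% of UMIs in 17.7% of poor and 1.04% of rich cells.

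With both kinds of cell left out, a setting added after the data were seen, 1881 rich and 1954 poor cells remained, with 40 genes higher and 137 lower. Ccl5 was then 18.1-fold lower, Cxcl3 7.08-fold, Ccl2 4.51-fold, Cxcl5 2.60-fold and Ppbp 2.31-fold. None of these 5 was among the 36 genes that chose the cells left out. Ccl7, Cxcl12 and Spp1 were, so their differences there, 3.60-fold, 13.1-fold and 3.83-fold lower, are limited by how this setting is built. The same holds for Col1a1 and Piezo2, with ratios of 1.42 and 1.08. Spink5, Fxyd3 and Gpx2 were 1.88-fold, 1.73-fold and 1.78-fold higher there, below the limit for a call.

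Among the other WAP-family genes none was called higher. Of 24 listed, 23 were in the matrix and 15 had no UMI in rich cells. Besides Wfdc18, 2 passed the minimum level. Slpi was lower, and Wfdc2, the family's epididymal protein HE4, was at 1682 and 1708 CPM, a ratio of 0.985. Wfdc3 was below the minimum level and untested, with 29 UMIs in rich and 13 in poor cells, a ratio of 2.78 (1.40 to 5.83).

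Around Wfdc18 the annotation (GENCODE M21) places 31 genes within 500 kb, of which 27 are protein coding. Besides Wfdc18, 14 of them were tested, 1 was higher (Ccl9) and 1 lower (Ccl5). Over all tested genes the shares were 0.338% and 2.44%, and counts this small describe these genes, not the region. Ccl5, from 83525778 to 83530518 on the minus strand, lies 178 kb from Wfdc18, on the far side of Ccl9. The nearest WAP genes were almost silent: Wfdc17, 2.75 kb away, had 1 UMI in rich cells and none in poor cells, and Wfdc21, 35.6 kb away, had 1 in each. Ccl6 had 16 and 7 UMIs, Ccl4 had 4 and 0, and Ccl3 had none in either set. Mmp28, a matrix metalloproteinase, was at 20.9 and 12 CPM (1.75-fold), and Dusp14, a phosphatase, at 63.5 and 36.9 CPM (1.72-fold).

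**Figure D5:**
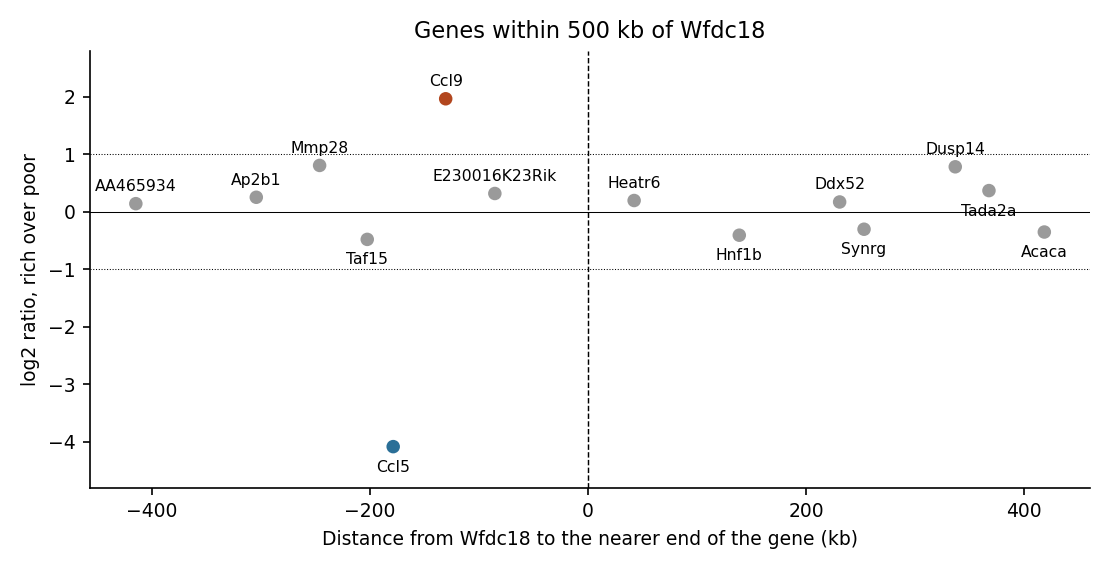
log2 ratio of CPM, rich over poor cells (y axis), of the 14 tested genes within 500 kb of Wfdc18, by distance from Wfdc18 to the nearer end of the gene (x axis, kb, negative towards lower coordinates). Dotted lines mark 2-fold differences. Ccl9 is the 1 gene above the upper line and Ccl5 the 1 gene below the lower line, and the other 12 lie between.

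Respiratory chain genes are carried by 2 genomes. All 13 respiratory chain genes of the mitochondrial genome had a ratio below 1, with a median log2 ratio of -0.43, and mt-Nd6 alone was called lower. With the mesenchymal-transcript and Malat1-rich cells left out, mt-Nd6 had a ratio of 0.588 and was not called, mt-Co1 had 0.928 and mt-Atp6 1.05, on the other side of 1. Of 24 nuclear respiratory chain genes none was called, and the median was 0.05. Median mitochondrial UMIs were 2.61% in rich and 3.0% in poor cells. Beside Ucp2, none of the other 11 tested mitochondrial carriers was called: Slc25a5, an ADP/ATP carrier, was at 508 and 421 CPM, and Slc25a37, an iron carrier, at 18.9 and 34.7 CPM. Of 25 tested LIM and cytoskeletal genes Crip1 was the 1 higher, 4 were lower (Tagln, Acta2, Myl9 and Fhl1), and Crip2 was at 365 and 191 CPM (1.91-fold). Acta2 was at 5340 CPM in mesenchymal barcodes.

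Trp53, Cdkn2a, Cdkn2b and Notch1 were not called. Trp53 was at 52.0 and 49.6 CPM, Cdkn2a at 555 and 601 CPM, Cdkn2b at 196 and 220 CPM and Notch1 at 27.1 and 23.2 CPM. UMIs counted near the 3′ end can lie outside a deleted or edited part, so these levels do not check the knockouts. None of 16 tested p53 targets was called, near the shares over all tested genes (0.338% higher and 2.44% lower). Cdkn1a had the lowest ratio of them, 0.527. Its ratio was 0.481 with cells thinned and 0.445 with the mesenchymal-transcript and Malat1-rich cells left out, both past the 2-fold limit. Against the second bin it was 0.641. The added GFP sequence was at 11927 and 19938 CPM and the Scar sequence at 10955 and 19998 CPM, ratios of 0.598 and 0.548, short of a call. Both were lower at every step across the bins. Of 11 tested S-phase genes none was called, and of 7 G2/M genes 1 was lower (Ccnb2), with mitosis genes limited by the rule.

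Spread among rich cells was described by the variance of a gene's UMIs over their mean. The limit of 1.5 was a chosen size, not a bound of counting error. Genes below it can differ between cells too, so how many differed beyond counting was not tested. At 1500 UMIs the ratio of variance to mean was at least 1.5 for 76 of 2491 genes (3.05%), with a median of 1.04, near the value of 1 that counting alone gives. It was 13.2 for Scar, 10.8 for Malat1, 9.03 for GFP, 8.74 for Tmsb4x and 8.64 for Wfdc18, whose range the rule fixed. It was 5.53 for Ppbp, 3.78 for Ccl2 and 3.69 for Cxcl5, so chemokine UMIs were unevenly spread within rich cells too. Ccl2 was absent from 91.7% of thinned rich cells and reached 18 UMIs in another.

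The 963 rich cells above their median Wfdc18 share held 36715 CPM of Wfdc18, and the 962 below it 18700 CPM. Ccl9 was at 455 CPM above and 395 CPM below the median, and Crip1 at 269 and 225 CPM. Ucp2 was at 611 and 630 CPM and Krt5 at 877 and 865 CPM, so these 2 were nearly level across the median. Ccl2 was at 92.9 and 150 CPM, Cxcl5 at 690 and 911 CPM and Ppbp at 1589 and 2029 CPM. The chemokine order seen between poor and rich cells was thus also present on either side of the median.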

How the data were processed

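The deposited matrix held UMI counts per gene and cell barcode, mapped and counted by the authors with Cell Ranger 8.0.1 per the file headers, with build mm10 per the submitters' processing notes. The annotation used is not given in the sources used here. Counts were whole numbers with nothing normalized. Every barcode had at least 500 UMIs. All cells were taken as a single sample, since nothing ties the reads to 1 of the 3 libraries.

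The members, gene lists and markers were chosen with earlier results of these data known. Counts were summed over the cells of a set and divided by the set's total UMIs to give CPM, which is sensitive to Wfdc18 taking 2.78% of rich cells' UMIs; an alternative leaves it out. Genes were called by size (at least 2-fold, at least 10 CPM), with no test. No caller of doublets was run and none were removed. Genes named were the 4 markers, the engineered genes, the 15 largest and 15 smallest ratios at 50 CPM or more, up to 10 per list (the 4 with the highest levels and 3 in each direction), neighbours within 500 kb and the 5 genes with the most UMIs. Hlf, Ptn, Alox12, Tgif2, Krt6a, Sox2, Ccl25 and a few other members of lists were named beside these after their values were seen. Of 32287 feature IDs 32158 matched GENCODE M21. Promoters are RefSeq's. The rule for calls was tried on simulated sums with known folds and counting error only. Spread between cells was not simulated, so the trial does not cover it. Python 3.11.15, numpy 2.4.6, scipy 1.17.1 and pandas 2.3.3 were used.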

Additional observations from a re-analysis of the deposited data

How the results depend on the processing

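Every alternative kept all 29 higher genes above a ratio of 1, and 205 to 209 of the 209 lower genes below 1. Counts stayed within 1.5 times the main 29 higher and 209 lower genes except as follows. Taking the top and bottom 33% gave 123 lower, at least 1000 genes and 2000 UMIs gave 45 higher, and averaging the CPM of single cells gave 357 lower. A ratio of 1.5 gave 161 higher and 793 lower, and a level of at least 50 CPM gave 15 and 45. Alternatives added after the data were seen limited mesenchymal and Malat1-rich cells or changed the comparison. At most 2 UMIs of 36 further mesenchymal genes gave 45 higher, both limits together (at most 10 such UMIs and Malat1 at most 5%) gave 137 lower, and the second bin in place of cells at 0 gave 17 and 83, of which 9 and 69 were among the main calls. The genes called differed more than the counts: of the 29 and 209, thinning called 19 and 151, ranking on a random draw of UMIs 18 and 158, and both added limits 22 and 118. Col1a1 reversed to 1.10, 1.25 and 1.42 under at most 2 UMIs, at most 10 UMIs and both limits, Acta2 to 1.07 under at most 2 UMIs, and Piezo2 to 1.08 under both. These 3 are among the 36 genes limited. For reversals and for changed counts the cause was not tested, beyond what each alternative's construction fixes. Wfdc18 in rich cells was 29053 CPM when thinned, 27370 CPM when a random draw of UMIs ranked the cells and the others gave the level, 36715 CPM for the top 10%, 21052 CPM for the top 33%, 29896 CPM with the higher depth limits, 28267 CPM at up to 10% mitochondrial UMIs, 28326 CPM without the deepest 10% of cells, 26614 CPM without the secretory limit, 26677 CPM without the mitosis limit, 27653 CPM as a mean of cells and 28313 CPM at 2 UMIs. No paired analysis was possible because the series has 1 culture and the result comes from no test. Depth limits genes near 10 CPM, such as Slc25a10, with 55 UMIs in rich cells.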
